A study of Homo sapiens with 6 samples.

Results

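The genes described here are 10 components of the transforming growth factor beta (TGF-beta) pathway, out of 22933 gene symbols in the table. They were chosen by name and by no rule on their values, though with earlier results of these data known. They are the ligands TGFB1 and TGFB2, the receptors TGFBR1 and TGFBR2, the signal-carrying SMAD2, SMAD3, SMAD5 and SMAD4, and the inhibitors SMAD7 and SMURF2. They were measured by RNA-Seq in PC-3, an established prostate adenocarcinoma line derived from a bone metastasis, in 6 samples, 3 per group. Both groups carried rtTA2, the Tet-On transactivator that switches on a responsive promoter only when doxycycline (Dox) is present, and both received 300 ng/ml Dox for 4 hours. The tdTom group had been infected with a second retrovirus encoding the red fluorescent protein tdTomato, and the TTP-tdTom group with the same vector that also encoded tristetraprolin (TTP). The comparison therefore asks which transcripts differ between the groups after 4 hours of Dox. None of the 6 samples was left without Dox. Induction of TTP therefore cannot be told apart from standing differences between the separately infected cells. Nothing in the labels says that the 3 samples of a group came from separate infections.

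All values are FPKM, that is, fragments scaled to transcript length and to library size, and the table gives 1 value for each group at each assembled locus. Values of the single samples, their spread and the fragments behind each value were not analysed here, so the depth reached is unknown (the labels give only the one aimed for), no spread between samples is given and no test between groups was made. The authors' own test in that table was not used. A gene is described as at least 2-fold lower or higher from the ratio of the group values alone. Of the 22933 symbols, 13004 had an FPKM of at least 1 in 1 of the groups and above 0 in both, and all 10 genes passed this filter. The PC-3 label was checked with marker genes. The epithelial and PC-3 markers KRT8, KRT18, KRT19, EPCAM, CD44 and VIM lay between 15.1 and 1158.7 FPKM in the tdTom group, and the luminal prostate markers KLK2, KLK3 and TMPRSS2, known to be low in PC-3, reached at most 1.78 FPKM in that group and 2.53 FPKM in the other. The 6 fibroblast markers reached at most 4.56 FPKM in either group and the 5 white blood cell markers at most 4.96 FPKM. ZFP36, the gene that encodes TTP, was at 5.56 FPKM in tdTom cells and 5.54 FPKM in the group labelled TTP-tdTom, so the table shows no rise at that locus, and every direction given here rests on the group labels. Capture of vector-derived ZFP36 fragments by this locus was not analysed.

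TGF-beta is secreted in a latent form and, once released, binds the serine/threonine kinase receptor TGFBR2, which recruits and phosphorylates TGFBR1. TGFBR1 then phosphorylates SMAD2 and SMAD3, which join SMAD4 and act in the nucleus, while SMAD5 does the same for the bone morphogenetic protein (BMP) receptors, and SMAD7 with the ubiquitin ligase SMURF2 shuts the receptors down. In prostate and other epithelia the pathway restrains proliferation early in tumor growth and is linked with invasion later. TTP is an RNA-binding protein that recognizes AU-rich elements in 3′ untranslated regions (3′UTRs), with UAUUUAU as a core sequence, and promotes decay of the bound mRNA.

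The heptamer was sought in the transcript with the longest annotated 3′UTR, on the transcript strand only and with overlaps counted, and 8 of the 10 genes held at least 1 copy. Among the 11829 symbols that passed the filter and were matched to an annotated 3′UTR, 36.1% did. Copies were counted over the whole 3′UTR, whose median length was 1383 bases in these symbols. TGFBR1, SMAD2, SMAD3, SMAD4 and SMAD5 were in the decile with the longest 3′UTRs, which starts at 4579 bases. The part of 3′UTR length in these shares was not tested. The sites below are shown because they are the letters TTP is known to bind, in the genes whose values follow. Each is given 5′ to 3′ with 10 bases on either side, the heptamer is in capitals, and transcripts and coordinates are those of GENCODE release 29 on GRCh38.
TGFBR1, the only copy: ucaaaaagcuUAUUUAUcuggguaacc
TGFB1, the only copy: uaguuagaucUAUUUAUugagcaccuu
TGFB2, copy 1: aacagugaguUAUUUAUuguguguuac
TGFB2, copy 2: uuuauucccuUAUUUAUugcuauuugg
SMAD3, copy 1: gguguuuuuaUAUUUAUguaauaauuu
SMAD3, copy 2: agcauguaugUAUUUAUaguguuuuag
SMAD2, copy 4: ugcacagugcUAUUUAUacauuuuuau
SMAD2, copy 5: uauacauuuuUAUUUAUuucagaguuu
SMAD7, the only copy: uaagcaucauUAUUUAUguauugugca
SMURF2, the only copy: cccaggacucUAUUUAUacaacccuga

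The TGFBR1 copy begins at base 735 of a 3′UTR of 4887 bases, at chr9:99150040-99150046 on the plus strand. The TGFB1 copy begins at base 307 of 729, at chr19:41330739-41330745 on the minus strand. The TGFB2 copies begin at bases 469 and 2854 of 3257, at chr1:218441831-218441837 and chr1:218444216-218444222 on the plus strand. In SMAD3 both copies lie near the 3′ end, at bases 4012 and 4485 of 4659, at chr15:67194548-67194554 and chr15:67195021-67195027 on the plus strand. The SMAD7 copy begins at base 1317 of 1519, at chr18:48920049-48920055 on the minus strand. The SMURF2 copy begins at base 28 of a short 3′UTR of 483 bases, at chr17:64545814-64545820 on the minus strand. SMAD2 held 8 copies in an annotated 3′UTR of 32870 bases and SMAD5 held 4 in 5254 bases, whereas TGFBR2, with 2543 bases, and SMAD4, with 6578 bases, held none. The pair printed for SMAD2 starts at bases 8998 and 9012, at chr18:47832823-47832829 and chr18:47832809-47832815 on the minus strand, and is its closest. The SMAD2 and SMAD5 counts depend on the transcript. In the transcript with the longest coding sequence SMAD2 has 5 copies in 10276 bases and SMAD5 has 0 in 525 bases. The count of the other 8 genes is the same. With that choice of transcript 28.8% of the symbols matched to a 3′UTR held a copy.

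The 10 genes spanned a 138-fold range of level in the tdTom group. TGFB1 was the highest at 203.5 FPKM, above 97.3% of the expressed symbols, and was followed by SMURF2 at 68.0, SMAD5 at 28.2, SMAD4 at 25.7, TGFBR2 at 18.8 and TGFB2 at 10.0 FPKM. TGFBR1 and SMAD3 stood next, both at 8.25 FPKM, then SMAD2 at 4.94 and SMAD7 at 1.47 FPKM. In the TTP-tdTom group the range was 146-fold and ranks 1 to 5, 9 and 10 were held by the same genes, while SMAD3 moved from rank 8 to rank 6, above TGFB2 and TGFBR1. Which neighbours in these orders differ beyond the spread between samples cannot be given from 1 value per group.

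**Figure D1:**
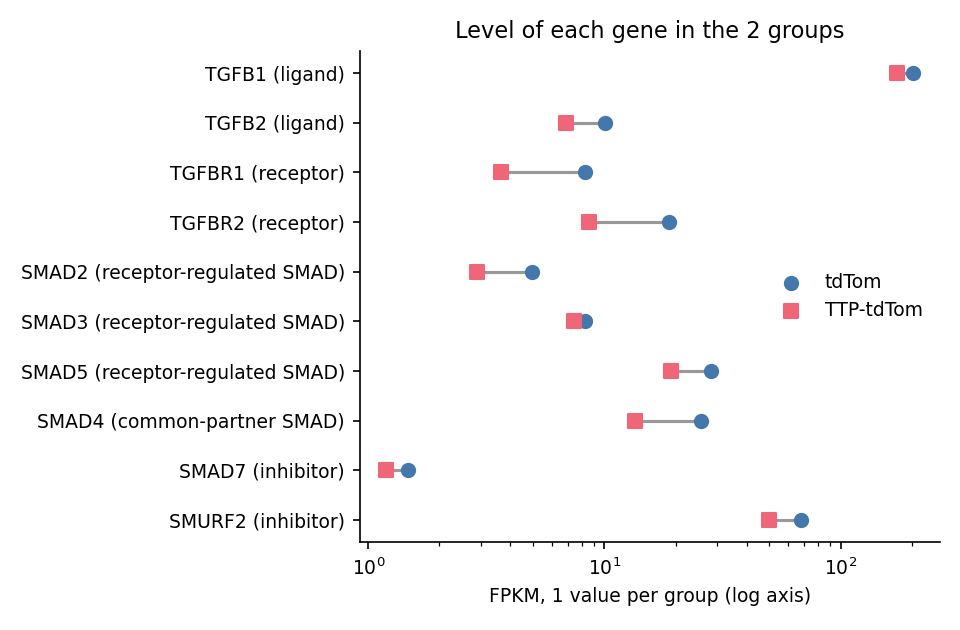
Level of each of the 10 genes in FPKM on a log axis, with 1 circle for the tdTom group and 1 square for the TTP-tdTom group, and no error bar because the table gives 1 value per group. The square lies to the left of the circle for all 10 genes, with the widest gaps at TGFBR1 (8.25 against 3.64 FPKM) and TGFBR2 (18.8 against 8.61 FPKM). TGFBR2 is drawn without the unnamed row described below.

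FPKM was lower in the group labelled TTP-tdTom for all 10 genes, and all 10 turned higher when FPKM was rescaled to the same sum over all loci, a step that adds 3.09 to every log2 fold change. At least 2-fold lower were 2 of the 10, TGFBR1 and TGFBR2, against 8.65% of all 13004 symbols. None of the 10 was at least 2-fold higher, against 2.45% of all symbols. At a 1.5-fold limit 4 of the 10 were lower, SMAD2 and SMAD4 besides the receptors, against 22.8% of all symbols. Lower values were common in the whole table, in which 78.5% of symbols were lower and the median log2 fold change was -0.23. The median of the 10 genes was -0.55, and 8 of them lay below the median of all symbols. Relative to that median TGFBR1 was at -0.95 and TGFBR2 at -0.89, so neither was 2-fold below it.

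**Figure D2:**
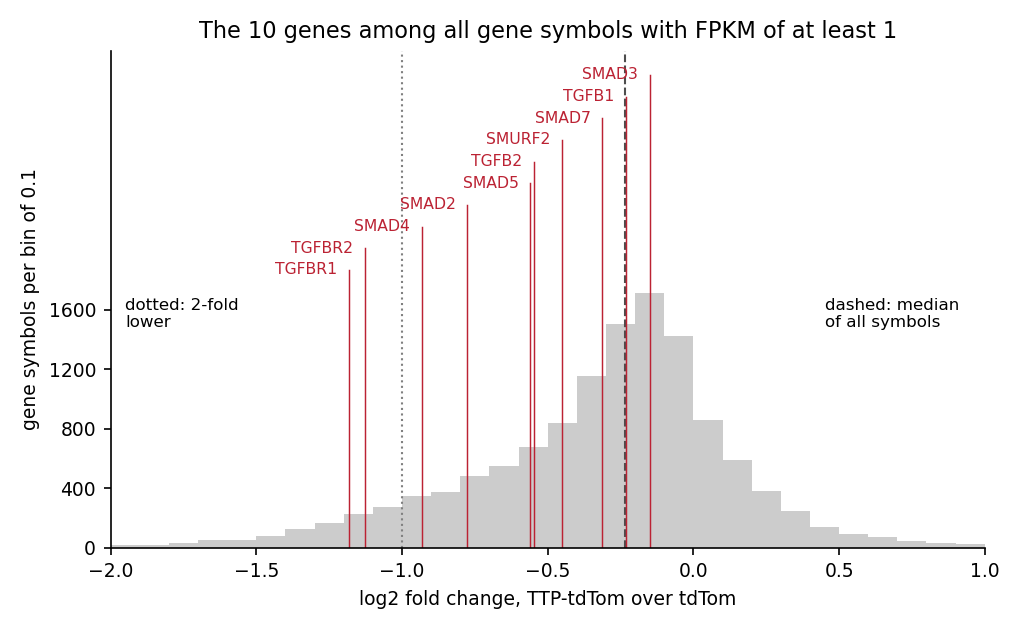
Histogram of the log2 fold change (TTP-tdTom over tdTom, horizontal axis, shown from -2 to 1) of the 13004 expressed gene symbols in bins of 0.1, with a red line for each of the 10 genes. The dashed line is the median of all symbols at -0.23 and the dotted line marks 2-fold lower. Of the 10 genes only TGFBR1 and TGFBR2, the latter drawn without the unnamed row described below, pass the dotted line.

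Among the ligands, TGFB1, the main isoform made by epithelial tumors, was close to the typical transcript. It was at 203.5 FPKM in tdTom cells and 173.3 FPKM in TTP-tdTom cells, a log2 fold change of -0.23, with 85.2% of the tdTom level left. The deposited locus of TGFB1 is chr19:41836432-41859831 in GRCh37, the build of the files. TGFB2, a second isoform with its own promoter and a long 3′UTR, was at 10.0 and 6.86 FPKM, a log2 fold change of -0.55. TGFB1 was 20.3 times as abundant as TGFB2 in tdTom cells and 25.3 times in TTP-tdTom cells. An overlapping named locus at TGFB2, LOC728463, was at 1.74 and 0.908 FPKM.

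The receptors had the lowest log2 fold changes of the 10 as deposited, though with the unnamed row described below TGFBR2 would come after SMAD4 and SMAD2. TGFBR1, the kinase that phosphorylates SMAD2 and SMAD3, was at 8.25 FPKM in tdTom cells and 3.64 FPKM in TTP-tdTom cells, a log2 fold change of -1.18, and 5.11% of expressed symbols were as low or lower. Its deposited locus is chr9:101867412-101916473 in GRCh37. TGFBR2, the receptor that binds ligand first, was at 18.8 and 8.61 FPKM, a log2 fold change of -1.13, at a deposited locus of chr3:30647717-30736521 in GRCh37. TGFBR1 made up 30.5% of the summed FPKM of the pair in tdTom cells and 29.7% in TTP-tdTom cells. The ratio of TGFB1 to TGFBR2 FPKM was 10.8 in tdTom cells and 20.1 in TTP-tdTom cells.

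Each receptor's place past the 2-fold limit rests on a processing choice. At TGFBR2 a second assembled row without a gene name has the same deposited interval, listed at 0 FPKM in tdTom cells and at 3.28 FPKM in TTP-tdTom cells. Added to the named row, it gave 18.8 and 11.9 FPKM and a log2 fold change of -0.66, short of 2-fold. With it TGFBR1 made up 23.4% of the receptor pair in TTP-tdTom cells, and the ratio of TGFB1 to TGFBR2 was 14.6. The table gives no strand and no transcript structure for such rows, so whether that row is TGFBR2 mRNA was not tested. TGFBR1 has no such row, and it falls short of 2-fold with a pseudocount of 1 FPKM.

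Among the receptor-regulated SMADs, SMAD2 and SMAD3 share the role of relaying TGF-beta but stood apart in these values. SMAD2 was at 4.94 FPKM in tdTom cells and 2.89 FPKM in TTP-tdTom cells, a log2 fold change of -0.78. SMAD3 was at 8.25 and 7.44 FPKM, a log2 fold change of -0.15, above the median of all symbols. SMAD2 thus made up 37.5% of the summed FPKM of SMAD2 and SMAD3 in tdTom cells and 27.97% in TTP-tdTom cells, a difference that has no replicate check. SMAD5, which serves BMP receptors, was at 28.2 and 19.1 FPKM, a log2 fold change of -0.56. The antisense locus SMAD5-AS1 that overlaps it was at 0.316 and 0.206 FPKM.

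SMAD4, the partner that every receptor-regulated SMAD needs, was at 25.7 FPKM in tdTom cells and 13.5 FPKM in TTP-tdTom cells, a log2 fold change of -0.93, the nearest of the 10 outside the 2-fold limit. The ratio of SMAD4 to SMAD3 FPKM was 3.11 in tdTom cells and 1.81 in TTP-tdTom cells, while that of SMAD4 to SMAD2 was 5.19 and 4.66. A row without a gene name at the SMAD4 interval was at 0.716 and 0.683 FPKM, and with it the log2 fold change of SMAD4 was -0.90.

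Among the inhibitors, SMAD7, the inhibitory SMAD that occupies TGFBR1 and is itself induced by TGF-beta, was barely above the filter. It was at 1.47 FPKM in tdTom cells and 1.19 FPKM in TTP-tdTom cells, a log2 fold change of -0.31. SMURF2, the ubiquitin ligase that SMAD7 brings to the receptor, was at 68.0 and 49.7 FPKM, a log2 fold change of -0.45. SMURF2 exceeded SMAD7 by 46.1 times in tdTom cells and 41.9 times in TTP-tdTom cells. At the SMURF2 interval 4 rows without a gene name summed to 9.85 and 5.53 FPKM, and with them its log2 fold change was -0.49.

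The heptamer copies were set beside the log2 fold changes. Across the table the median log2 fold change was -0.17 for symbols without a copy, -0.36 with 1, -0.53 with 2, -0.63 with 3 and -0.63 with 4 or more. Spearman's rho between copies and log2 fold change was -0.32 over 11829 symbols and 0.28 over the 10 genes, in both cases across genes that share the same 2 group values, and the difference was not tested. TGFBR2 and SMAD4, which have no copy, were at -1.13 (-0.66 with the unnamed row) and -0.93, and the median of all symbols without a copy was -0.17, with 4.59% at least 2-fold lower, a limit that SMAD4 does not reach. TGFBR1 has 1 copy and was at -1.18, with 11.2% of all symbols of that class at least 2-fold lower. SMAD3 has 2 copies and was at -0.15, and SMAD5, with 4 copies in its longest 3′UTR, was at -0.56, near the -0.63 of its class. The shorter pentamer AUUUA, which every UAUUUAU contains, was present in all 10 genes, with 14 copies in SMAD4 and 1 in TGFBR2, and in 74% of all symbols.

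**Figure D3:**
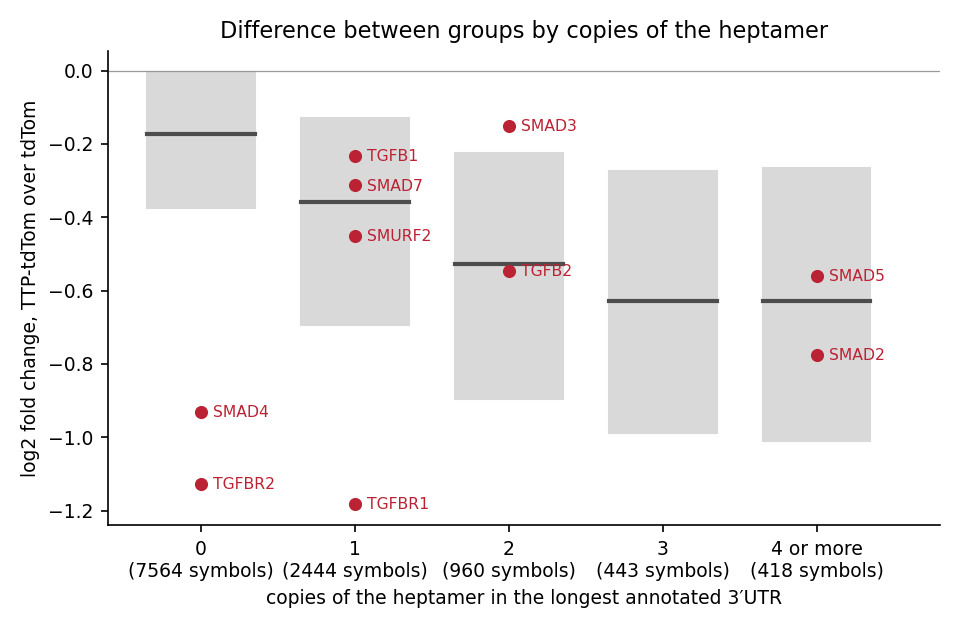
Log2 fold change (TTP-tdTom over tdTom, vertical axis) against the number of heptamer copies in the longest annotated 3′UTR (horizontal axis). Gray boxes span the middle 50% of all symbols in a class with a bar at the median, and red points are the 10 genes. TGFBR2, drawn without its unnamed row, and SMAD4 lie below the box of the class without a copy, TGFBR1 below that with 1 copy, and SMAD3 above that with 2 copies.

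Base composition followed the difference between groups across the table, and the 10 genes were placed beside it. In all symbols the median log2 fold change was -0.74 in the decile of lowest transcript GC content and -0.08 in the highest, and Spearman's rho between GC content and log2 fold change was 0.47 over all symbols and 0.58 over the 10 genes. TGFB2, TGFBR1, SMAD2 and SMAD4, with 38.9%, 39.0%, 40.2% and 39.5% GC, were in decile 2, where the median was -0.57 and 19.7% of symbols were at least 2-fold lower. Relative to that median TGFB2 was at 0.03, SMAD2 at -0.20, SMAD4 at -0.36 and TGFBR1 at -0.61. TGFBR2, with 47.0% GC, was in decile 5, where the median was -0.25 and 5.33% of symbols were at least 2-fold lower, and stood at -0.87 relative to it without the unnamed row at its interval. SMAD5, with 37.0% GC, was 0.18 above the median of its decile, and SMAD3, with 50.4% GC, was 0.04 above. In all, 7 of the 10 lay below the median of their GC decile and 9 below that of their decile of 3′UTR length, SMAD3 being the exception. The part of base composition in the differences between groups was not tested.

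**Figure D4:**
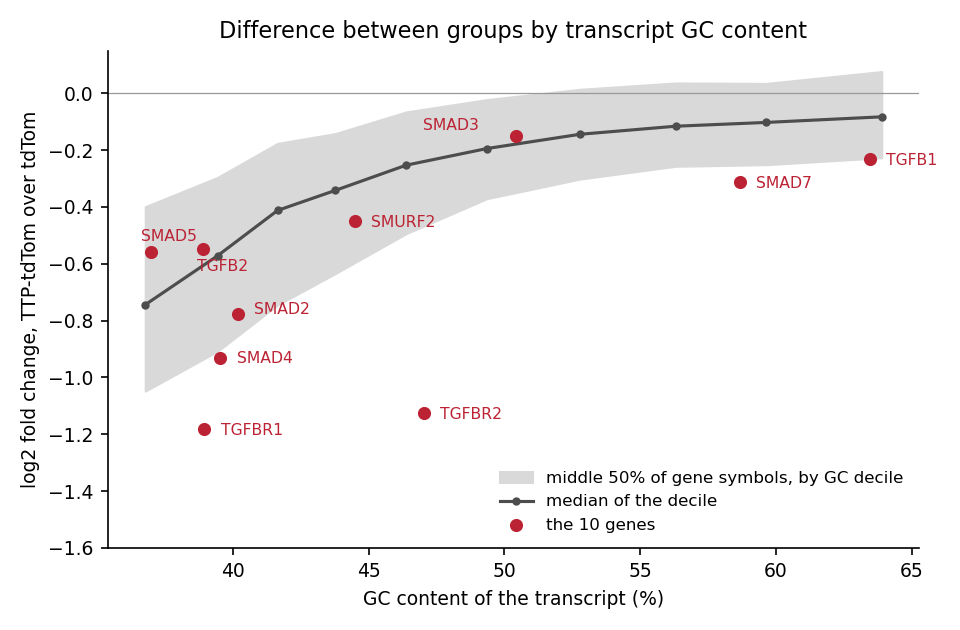
Log2 fold change (TTP-tdTom over tdTom, vertical axis) against the GC content of the annotated transcript in percent (horizontal axis). The line joins the medians of 10 GC deciles of all symbols, the band is the middle 50% of each decile, and red points are the 10 genes. The deciles climb from -0.74 to -0.08. TGFBR1 and TGFBR2, the latter drawn without its unnamed row, lie well below the band. SMAD4, SMAD7 and TGFB1 lie at or just below its lower edge, and SMAD5, TGFB2 and SMAD3 lie just above the line.

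The wider pathway was listed by role as 106 further genes, of which 82 passed the filter. In the TTP-tdTom group 71 of the 82 were lower and 11 higher as deposited, where 78.5% of all symbols were lower. At least 2-fold lower were 5 or 6.1%, against 8.65% of all symbols. None was at least 2-fold higher, against 2.45% of all symbols, and the median was -0.40 against -0.23 for all symbols. The 5 were SMAD6, FST, NOG, ROCK1 and ROCK2, and these too turned higher when FPKM was rescaled over all loci. Relative to the median of all symbols ROCK2 was at -1.14 and stayed past the 2-fold limit, whereas SMAD6 at -0.98, FST at -0.97, NOG at -0.89 and ROCK1 at -0.98 did not. Relative to their GC deciles SMAD6, at -1.11, and NOG, at -1.02, stayed past it, and FST, at -0.96, ROCK1, at -0.64, and ROCK2, at -0.80, did not. Relative to their deciles of 3′UTR length all 5 fell short of it. ROCK2 was at -0.99, SMAD6 at -0.97, NOG at -0.95, FST at -0.94 and ROCK1 at -0.83. With a pseudocount of 1 FPKM SMAD6 was at -0.84. Rows without a gene name at the same interval were not added for these 5 or for all symbols. NOG and ROCK1 are named because they passed the 2-fold limit and were chosen after their values were seen.

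Of 16 other ligands 5 passed the filter, 4 lower and 1 higher, where 78.5% of all symbols were lower. The 5 had a median of -0.09 against -0.23 for all symbols, and none was at 2-fold, against 8.65% of all symbols at least 2-fold lower. TGFB3, the third TGF-beta isoform, was at 1.96 FPKM in tdTom cells and 2.67 FPKM in TTP-tdTom cells, a log2 fold change of 0.44, against the lower values of TGFB1 and TGFB2. INHBB, an activin subunit and the most abundant of these ligands, was at 127.8 and 97.9 FPKM. NODAL was listed at 0 in tdTom cells and at 8.72 FPKM in TTP-tdTom cells, and its symbol stood at 2 loci. It missed the filter only because that asks for a value above 0 in both groups, and no fold is given.

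Of 11 proteins that store or activate latent TGF-beta 9 passed, all of them lower, where 78.5% of all symbols were lower. The 9 had a median of -0.35 against -0.23 for all symbols, and none was at 2-fold, against 8.65% of all symbols at least 2-fold lower. LTBP1, which holds latent TGF-beta in the matrix, was at 28.8 and 17.9 FPKM. ITGAV, the integrin chain that helps release it, had the lowest log2 fold change of the group at -0.76, or -0.01 relative to the median of its GC decile, and LTBP2 the highest at -0.02.

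Of 13 other receptors and coreceptors 9 passed, 8 lower and 1 higher, where 78.5% of all symbols were lower. The 9 had a median of -0.44 against -0.23 for all symbols, and none was at 2-fold, against 8.65% of all symbols at least 2-fold lower. BMPR2, which does for BMPs what TGFBR2 does for TGF-beta, was the lowest and also the most abundant, at 11.8 and 6.42 FPKM, a log2 fold change of -0.87, or -0.13 relative to its GC decile. ENG, a coreceptor, was the highest at 0.25. All 3 other SMADs passed. SMAD6, the inhibitory SMAD of the BMP branch, was at 3.47 FPKM in tdTom cells and 1.497 FPKM in TTP-tdTom cells, a log2 fold change of -1.21, while its counterpart SMAD7 was at -0.31. SMAD1, the close relative of SMAD5, was at 12.7 and 9.60 FPKM, a log2 fold change of -0.41, and SMAD9 was at 0.05, which became -0.67 with FPKM summed over its loci.

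Of 13 adaptors and nuclear partners of the SMADs 12 passed, 11 lower and 1 higher, where 78.5% of all symbols were lower. The 12 had a median of -0.57 against -0.23 for all symbols, and none was at 2-fold, against 8.65% of all symbols at least 2-fold lower. ZFYVE16, an endosomal SMAD-binding protein, was the lowest at -0.96, or -0.21 relative to its GC decile, and DAB2 the highest at 0.08, and FKBP1A, which binds TGFBR1 and keeps it inactive, was the most abundant at 474.7 and 357.1 FPKM. Of 19 other regulators of the pathway, negative regulators and deubiquitinases, 15 passed, all of them lower, where 78.5% of all symbols were lower. The 15 had a median of -0.57 against -0.23 for all symbols, and 2 of them were at least 2-fold lower, against 8.65% of all symbols. The 2 were FST, the activin-binding follistatin, at 189.0 and 81.8 FPKM, and NOG, the BMP-binding noggin, at 45.5 and 20.8 FPKM. Both act outside the cell. USP4, a deubiquitinase, was the highest of the list at -0.05.

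Of 9 genes of the kinase arm, through which the receptors act without SMADs, all 9 passed, 8 lower and 1 higher, with a median of -0.74 and 2 at least 2-fold lower, against the same 78.5%, -0.23 and 8.65% for all symbols. ROCK1 and ROCK2, the kinases that act below RHOA on the actin skeleton, were at 47.6 and 20.5 FPKM and at 45.6 and 17.6 FPKM. Their log2 fold changes were -1.22 and -1.38. With 40.5% and 39.9% GC both were in GC decile 2, where the median was -0.57 and 19.7% of symbols were at least 2-fold lower. Relative to that median ROCK1 was at -0.64 and ROCK2 at -0.80. The list as a whole was not set beside its GC deciles. RHOA itself was at 152.1 and 125.8 FPKM, and PARD6A, a polarity protein that binds the receptors, was the highest of the list at 0.19.

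Of 22 transcripts known to respond to TGF-beta or BMP signals 20 passed, 14 lower and 6 higher, where 78.5% of all symbols were lower. The 20 had a median of -0.34 against -0.23 for all symbols. None was at 2-fold in either direction, where 8.65% of all symbols were at least 2-fold lower and 2.45% at least 2-fold higher. ID1, an inhibitor of differentiation that BMP signals induce and that TGF-beta represses in many epithelial cells, was at 81.4 FPKM in tdTom cells and 111.8 FPKM in TTP-tdTom cells, a log2 fold change of 0.46. Its relatives differed in direction, ID3 at 0.32 and ID2 at -0.71. SNAI2, a repressor of epithelial genes, was at 8.98 and 5.17 FPKM, a log2 fold change of -0.80. VIM, an intermediate filament of mesenchymal cells and the most abundant of the list, was at 1158.7 and 898.9 FPKM. In RNA from whole cultures fewer cells that express a gene and less of its RNA per cell cannot be told apart, for these transcripts and for the 10 genes.

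**Figure D5:**
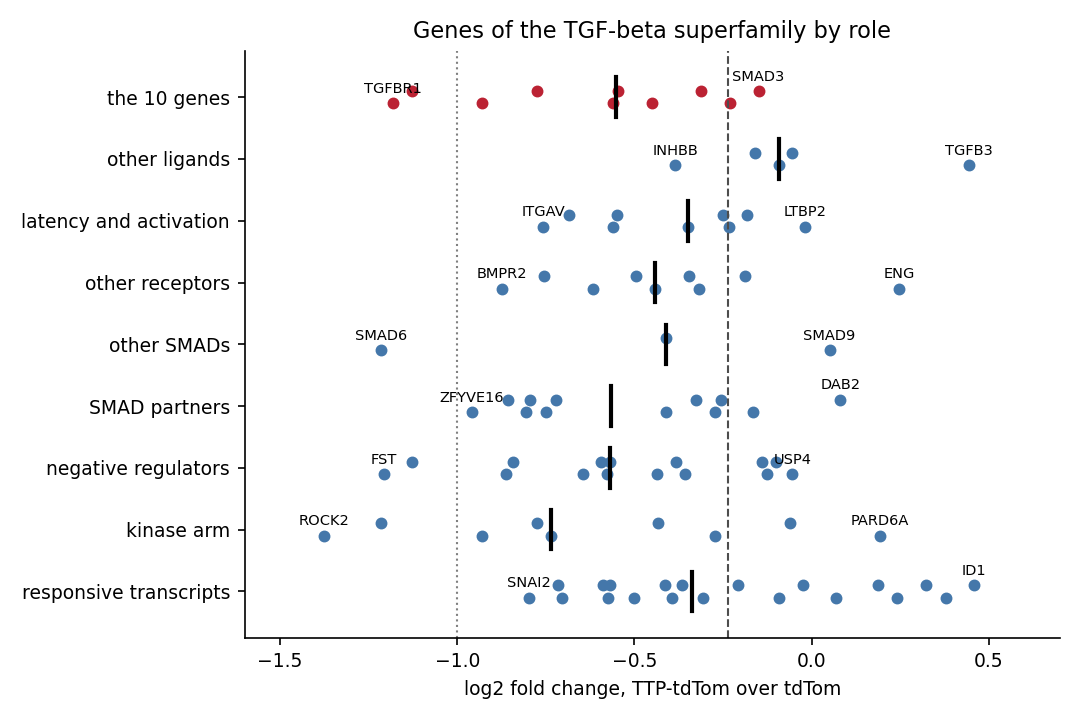
Log2 fold change (TTP-tdTom over tdTom, horizontal axis) of each gene that passed the filter, 1 point per gene, in red for the 10 genes and in blue for the other lists, with a black bar at the median of each list and the lowest and highest gene named. The dashed line is the median of all symbols at -0.23 and the dotted line marks 2-fold lower. The points past the dotted line are TGFBR1, TGFBR2 (drawn without its unnamed row), SMAD6, FST, NOG, ROCK1 and ROCK2.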

How the data were processed

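RNA was taken from 6 PC-3 cultures, and libraries that keep the strand were read from both ends. Per the submitters' processing notes, the authors used TopHat2 2.0.13 and Cufflinks 2.2.1, with the Hs37D5 (GRCh37) reference. The deposited FPKM values, which the authors computed per group over 406165 assembled loci, are the only values used. The same table holds the authors' fold changes, test statistics, p-values and q-values, which were neither used nor printed.

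Where loci shared a symbol, the one with most RefSeq names, then the highest FPKM, was taken. Log2 fold changes are TTP-tdTom over tdTom without a pseudocount. Deposited intervals are shared with another row at 54.4% of expressed symbols. Sequences, GC content and 3′UTRs come from GENCODE release 29 (GRCh38), matched by symbol or synonym for 91% of expressed symbols. Symbols named were all 10 genes, ZFP36 and, from each list, the lowest and highest log2 fold change and the highest tdTom FPKM. Outside this rule stand the cell markers and, named after their values were seen, NODAL, NOG, ROCK1, ID2, ID3 and the loci that overlap TGFB2 and SMAD5. Some marker genes are not reported here. The genes and lists were chosen with earlier results of these data known. The alternatives were 2 pseudocounts, other centring, scaling, loci, thresholds, filters and transcripts, and, chosen after seeing the data, the pentamer, leaving out SMAD7 and adding unnamed rows. Functions were tested on simulated data. Python 3.11.15, numpy 2.4.6, pandas 2.3.3 and matplotlib 3.10.9 were used.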

Additional observations from a re-analysis of the deposited data

How the results depend on the processing

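No paired analysis was possible because the table holds 1 value per group. Likewise no replicate could be left out, and depth could not be read from FPKM. Rescaling FPKM to the same sum over all loci (mainly loci without a gene name) turned the log2 fold changes to 1.91 for TGFBR1, 1.97 for TGFBR2, 1.88 for SMAD6, 1.88 for FST, 1.97 for NOG, 1.88 for ROCK1, 1.72 for ROCK2 and 2.54 for the median of the 10 genes, because this step adds 3.09 to each. Rescaling over loci with a symbol adds only 0.05. The median of the 10 genes, -0.55 as reported, was -0.32 after centring on the median of all symbols. It was -0.18 after centring on GC deciles and -0.22 after centring on 3′UTR length deciles. The count of genes at least 2-fold lower, 2 as reported, was 1 with a pseudocount of 1 FPKM, 1 with a minimum of 10 FPKM, which leaves out TGFBR1, and 1 with unnamed rows at the same interval added. It was 0 after centring on the median of all symbols, 0 after centring on GC deciles, 0 after centring on 3′UTR length deciles, 0 after rescaling over all loci and 0 at a 3-fold limit, and it was 4 at a 1.5-fold limit.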
